A study of Mus musculus with 6 samples.

Results

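The genes described here encode the proteins of the cytosolic ribosome in mouse liver. They were chosen by symbol: a gene of the form Rpl or Rps plus a number, with an optional a or x, or Rpsa, Rplp0, Rplp1 or Rplp2, and an average over the 6 libraries that reached 1 FPKM. FPKM is a count of fragments divided by gene length and by library depth. Of 46095 listed genes, 76 matched by symbol and 73 passed the filter, 46 of the large subunit and 27 of the small subunit. The 3 that did not pass were Rps13 at a mean of 0.977 FPKM, Rps29 at 0.850 FPKM and Rps28 at 0.381 FPKM, and the lowest that passed were Rps27 at 1.40 FPKM and Rpl10a at 1.68 FPKM. Rps3a is listed under the symbol Rps3a1, outside the pattern, as is Fau, which encodes a ribosomal protein fused to a ubiquitin-like protein.

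A ribosome is built from a small subunit, which reads the mRNA, and a large subunit, which joins amino acids, each an assembly of ribosomal RNA with many proteins in single copies. The mRNAs of nearly all these proteins begin with a run of pyrimidines, the 5′ TOP, through which their translation responds to mTOR. In liver they are among the abundant housekeeping mRNAs, and the mouse genome holds many processed copies of them, intronless sequences made from reverse-transcribed mRNA.

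The libraries came from C57BL/6 mice fed a high-fat diet (HFD) for 26 weeks in both groups, and are labelled as hepatocytes from liver. The groups are HFD-WT, 3 wild-type libraries, and HFD-ARRB1-KO, 3 libraries titled as ARRB1 knockouts, abbreviated WT 1 to 3 and KO 1 to 3. The product of Arrb1 is beta-arrestin 1, which binds activated G protein-coupled receptors and dampens their signal, and the study's title places it in non-alcoholic steatohepatitis, the inflamed form of fatty liver. The genotype entries of KO 2 and KO 3 read ARRB2-/- and ARRB3-/- and so go against their titles. How the allele was made, and whether a library is 1 mouse or a pool, is not given in the sources used here. P-values therefore reflect the spread among these 6 libraries, which may be technical.

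Arrb1 was at 3.86, 22.7 and 16.9 FPKM in WT 1 to 3 and at 0.918, 1.05 and 1.16 FPKM in KO 1 to 3, so each knockout library lay below each wild-type library. The fold change was -2.64 with an SE of 0.51 on the log2(FPKM + 1) scale (limma, adjusted p = 0.0275), and the call was lost without any one library other than WT 1. The estimated depth was 27910000 to 33320000 fragments in the wild-type libraries, 13910000 in KO 1, and 35060000 and 29170000 in KO 2 and KO 3. Hepatocyte markers summed to 60187 to 71181 FPKM in wild type and 54924 to 63277 FPKM in the knockout, and none of the 10 was at 0 throughout. In the knockout, 2 of these 10 were called lower, Cps1 and Tat. Of the 10, 7 had fold changes below zero and 3 above, with a median of -0.27.

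Several ribosomal protein genes are nearly identical to a processed copy that has its own row, and the printed pairs show how little separates a gene from its copy. They were picked after the levels were seen. Rps13, which encodes a small subunit protein, lies at chr7:116331505-116334195 on the minus strand (GRCm38), and Rps13-ps1, its copy, at chr8:87047689-87048226 on the plus strand. The copy equals the 453 coding bases of Rps13 except at T411C and A429G, where the gene's base comes first and positions count from the first coding base. Bases 381 to 440 of the spliced coding sequence, with the differing bases in capitals, read 5′ to 3′ as follows.
Rps13: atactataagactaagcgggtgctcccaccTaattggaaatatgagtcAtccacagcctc
Rps13-ps1: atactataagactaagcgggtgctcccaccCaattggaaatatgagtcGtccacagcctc

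Rpl19, which encodes a large subunit protein, lies at chr11:98026710-98030492 on the plus strand, and its copy Rpl19-ps11 at chr8:19492936-19493526 on the plus strand. The copy equals the 588 coding bases except at G191A. Bases 161 to 220, with that base in capitals, are these.
Rpl19: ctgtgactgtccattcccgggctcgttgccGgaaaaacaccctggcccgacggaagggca
Rpl19-ps11: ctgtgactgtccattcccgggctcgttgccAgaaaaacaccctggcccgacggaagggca

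Rps23, which encodes a protein at the decoding centre of the small subunit, lies at chr13:90922958-90924950 on the plus strand, and Rps23-ps1 at chr3:37714740-37715164 on the plus strand. Over the 425 bases that could be aligned, of 429 coding bases, gene and copy had 0 substitutions, so the first 60 bases, printed once with no capitals, are those of both.
Rps23 and Rps23-ps1: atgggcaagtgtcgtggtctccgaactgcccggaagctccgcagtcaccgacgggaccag

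The copies of these genes held most of the signal. Rps13 was at 0.722, 0.923 and 0.794 FPKM in WT 1 to 3 and at 1.48, 0.588 and 1.35 FPKM in KO 1 to 3, while Rps13-ps1 was at 56.3, 60.2 and 70.3 FPKM and at 40.8, 59.2 and 52.9 FPKM in the same order. Rps23 had a mean of 3.36 FPKM against 33.1 FPKM for Rps23-ps1. Rpl19 had a mean of 43.6 FPKM against 150 FPKM for Rpl19-ps11. Thus the copy's row was the higher one in each of the 3 pairs. Rpl10a, of the large subunit, was at 1.68 FPKM and Rpl10a-ps1 at 73.8 FPKM, and Rpl15, also of the large subunit, was at 14.2 FPKM and its copy Gm4294 at 144 FPKM. The sources used here do not say how reads that match several places were treated, and so the levels of a gene and its copy cannot be told apart from a division of the same reads.

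The extent of sharing was measured for every member by cutting its coding sequence into 50-base windows and looking for each window in the transcripts of all other genes, an analysis added after the levels were seen. Of the 73 genes, 27 had under 1% of windows found in no other gene, 36 had 1 to 50%, and 10 had 50% or more. For 16 genes a single other gene held every window. The median of the mean levels was 10.1 FPKM in the 27 genes, 77.9 FPKM in the 36 and 130 FPKM in the 10, so genes with more sequence of their own were listed at higher levels. Across the 73 genes, Pearson's r between log level and the share of own windows was 0.46 and Spearman's rho 0.54, and the genes share the 6 libraries. Rpl8, of the large subunit, had 91.3% of its windows to itself and was at 248 FPKM, and Rpl10, of the same subunit, had none and was still at 188 FPKM. The 3 genes below the filter had none of their own either. Adding the rows that share at least 50% of a member's windows gave sums of which the member's own row held under 50% for 25 genes and 90% or more for 33 genes.

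**Figure D1:**
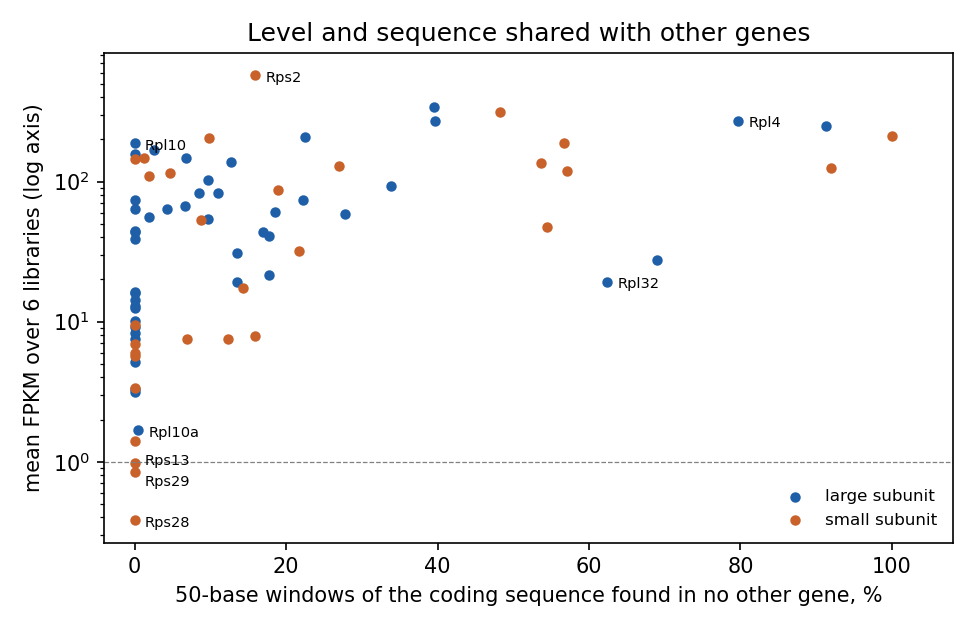
Mean FPKM over the 6 libraries (log axis) against the percent of 50-base coding windows found in no other gene, for the 76 genes matched by symbol, coloured by subunit. The dashed line is the filter of 1 FPKM. Genes at the left edge span from Rps28 at 0.381 FPKM to Rpl10 at 188 FPKM, and those with 50% or more lie at 19.3 FPKM (Rpl32) to 272 FPKM (Rpl4).

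Levels spanned from 1.40 FPKM (Rps27) to 574 FPKM (Rps2), with 16 genes under 10 FPKM, 33 at 10 to 100 FPKM and 24 at 100 FPKM or more. In the small subunit the highest genes included Rps2, Rps14, Rps4x and Rps15, at means of 574, 311, 204 and 190 FPKM. Rps2, a protein of the mRNA entry channel, was at 599.1, 559 and 680 FPKM in WT 1 to 3 and 518, 567 and 522 FPKM in the knockout, and its lowest library exceeded the highest of Rps14, which was at 319, 295 and 400 FPKM in wild type against 229, 342 and 283 FPKM in the knockout. The ranges of the X-linked Rps4x (175 to 247 FPKM) and of Rps15 (168 to 230 FPKM) overlapped, so their order is within the spread between libraries. In the large subunit the highest were Rplp1, Rpl4, Rplp0, Rpl8 and Rpl7, at 342, 272, 269, 248 and 207 FPKM, again with ranges that overlapped from one to the next.

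The FPKM scale rests on the gene lengths the authors divided by, which were recovered from the steps between values. For 6 of the 73 genes that length was over 5 times the coding length. Rps15a had 5136 bases against 390 coding bases, and Rps20 had 3446 against 357. Expressed per coding base, the mean of Rps15a would be 104 in place of 7.91 FPKM, and that of Rps20 would be 168 in place of 17.4 FPKM. Rps25 was the only gene with a recovered length (228 bases) under its coding length (375 bases). Steps give the smallest length that fits, and whether this explains the value of Rps25 was not tested. Levels are therefore compared between genes only as the authors' lengths have them. A gene's length divides all 6 libraries alike, but through the level it sets whether a gene passes the filter and how far the pseudocount shrinks its fold change. With a pseudocount of 0.1 in place of 1, Rps12 went from -0.46 to -0.56 and Rpl27 from 0.28 to 0.36.

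By library, the 46 large subunit genes summed to 3574, 3509 and 4212 FPKM in WT 1 to 3 and to 2878, 3625 and 3300 FPKM in KO 1 to 3. The 27 small subunit genes summed to 2892, 2740 and 3429 FPKM in wild type and to 2353, 2877 and 2560 FPKM in the knockout. KO 2 lay above WT 1 for the large subunit and above WT 2 for both, so the groups overlapped, and the highest library was WT 3 and the lowest KO 1 for each subunit. Both subunits together made up 1.38, 1.34 and 1.60% of all FPKM in wild type against 1.16, 1.44 and 1.28% in the knockout. The ratio of large to small subunit sums stayed at 1.25 ± 0.0283 (SD, n = 3) in wild type and 1.26 ± 0.0328 (SD, n = 3) in the knockout, a difference smaller than either spread. In bulk RNA, fewer cells of a type and less RNA per cell cannot be told apart.

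**Figure D2:**
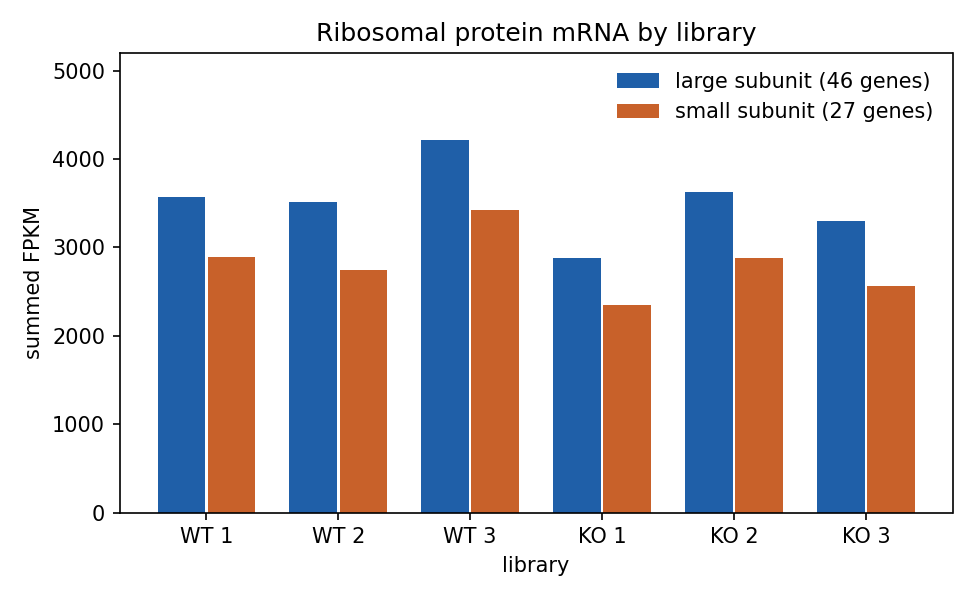
Summed FPKM of the large subunit (46 genes) and small subunit (27 genes) in each of the 6 libraries, bars starting at 0. WT 3 has the tallest bars (4212 and 3429 FPKM) and KO 1 the shortest (2878 and 2353 FPKM), while KO 2 stands at the height of WT 1.

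Knockout and wild type were compared gene by gene. No member passed an adjusted p under 0.05 in either direction (limma, adjusted over the 10633 genes past the same filter), where 6.9% of all genes tested did. At an unadjusted p under 0.05, 13 of the 73 were lower in the knockout and 0 higher, where 6.19% of all genes were lower by that rule. The groups did not overlap, with the knockout lower, for 15 of the 73 (7.81% of all genes) and, with the knockout higher, for 0 of the 73 (23.4% of all genes). The fitted fold change was below zero for 65 of the 73 members and for 36.4% of all genes tested. With median-of-ratios scaling 51.3% of all genes and 69 members were below zero, and with TPM scaling 29.5% of all genes and 61 members.

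The median log2 fold change was -0.19 in the large subunit and -0.25 in the small subunit, against 0.07 over all genes. In the large subunit 40 of 46 genes were below zero, and in the small subunit 25 of 27. Both medians rested in part on single libraries. Without KO 1 they were -0.09 and -0.17, with 58 of the 73 members below zero, and without WT 3 they were -0.11 and -0.16, with 59 below zero. Thus most genes stayed below zero when 1 of these libraries was left out, and the large subunit median came closer to zero by more than 1.5 times in both cases. The smallest adjusted p of any member was 0.0861 (limma).

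With median-of-ratios scaling of the libraries 3 members were called lower, among them Rpsa and Rpl3, with adjusted p of 0.0349 and 0.0365 by limma, where 2.13% of all genes were called lower and 578 genes were called in either direction. With quantile normalization 1 member was called lower, where 1.92% of all genes were and 575 genes were called in either direction. At an unadjusted p under 0.05 the count of lower members rose from 13 to 40 with median-of-ratios scaling (11.6% of all genes) and to 24 with quantile normalization (11.1% of all genes), so this count depended on the scaling.

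Rpsa, which encodes a small subunit protein also described as a laminin receptor, was at 156, 156 and 184 FPKM in WT 1 to 3 and at 122, 141 and 128 FPKM in KO 1 to 3. All knockout libraries lay below all wild-type libraries, at a fold change of -0.34 with an SE of 0.10 (limma, adjusted p = 0.0928). Rpl3, a large subunit protein near the peptidyl transferase centre and named after its values were seen, was at 69.8, 69.0 and 69.3 FPKM in wild type and at 57.9, 62.1 and 56.0 FPKM in the knockout. Here too the groups stood apart, with a fold change of -0.24 and an SE of 0.08 (limma, adjusted p = 0.111). Rps25, a small subunit protein used by some viral internal ribosome entry sites, was at 120, 108.4 and 141 FPKM in wild type and at 87.1, 104 and 96.1 FPKM in the knockout (-0.35, SE 0.12; limma, adjusted p = 0.122).

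**Figure D3:**
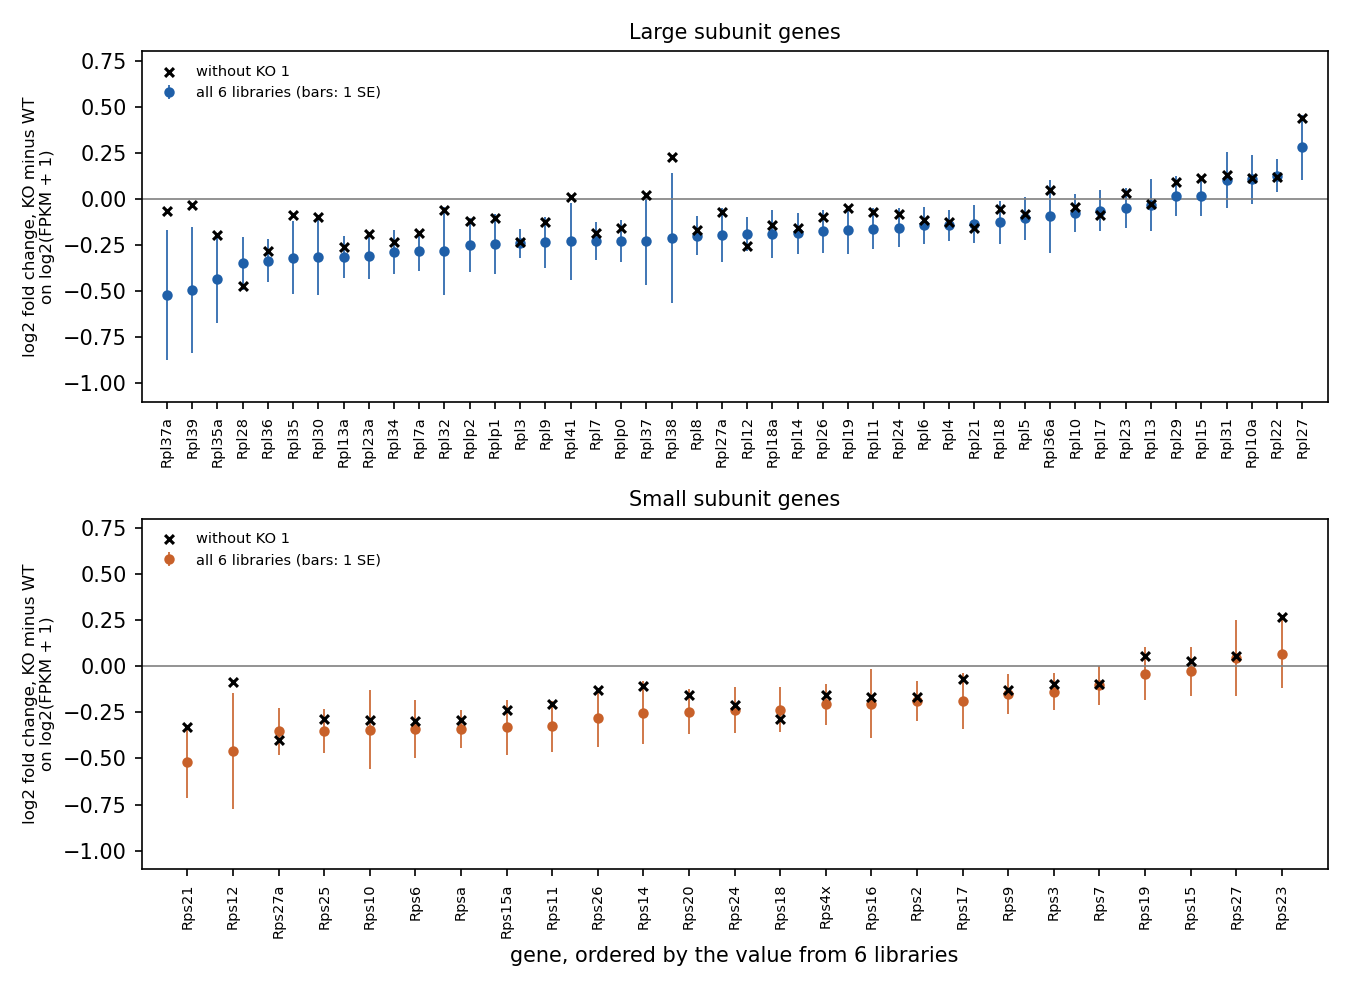
Log2 fold change of each member, knockout minus wild type, on the log2(FPKM + 1) scale, ordered by value within each subunit, with a few members left out. Dots use all 6 libraries with bars of 1 SE, and crosses leave out KO 1. Most dots lie below 0, and the crosses of Rpl37a, Rpl39 and Rps12 lie near 0, while those of Rpl3 and Rpsa stay close to their dots.

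Of the 5 lowest fitted values, those of Rpl37a, Rpl39, Rps12 and Rpl35a came closer to zero by more than 1.5 times without KO 1, as did that of Rps21, whose groups did not overlap. Rpl37a, a large subunit gene, was at 67.0, 58.5 and 83.8 FPKM in WT 1 to 3 and at 24.8, 65.8 and 66.2 FPKM in KO 1 to 3. KO 2 and KO 3 lay within the wild-type range and KO 1 far below it, and the fold change was -0.52 (SE 0.35) with KO 1 and -0.06 without it. Rpl39, an X-linked gene for a small protein of the peptide exit tunnel, was at 21.5, 20.6 and 23.6 FPKM in wild type and at 7.62, 22.7 and 19.98 FPKM in the knockout. Its fold change of -0.49 (SE 0.34) became -0.04 without KO 1. In recovered reads, Rpl39 had at least 46 in KO 1 against 346 and 253 in KO 2 and KO 3.

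Rps12, of the small subunit, was at 5.22, 6.78 and 8.66 FPKM in WT 1 to 3 and at 2.36, 5.56 and 7.15 FPKM in KO 1 to 3, and its fold change went from -0.46 to -0.09 without KO 1. Rpl35a, of the large subunit, went from -0.43 to -0.20. Rpl38, of the large subunit, was at 8.75, 7.58 and 12.5 FPKM in wild type and at 3.88, 11.5 and 10.9 FPKM in the knockout. Its fold change turned from -0.21 to 0.23 without KO 1. In recovered reads, Rps12 had at least 17 and Rpl38 at least 25 in KO 1. The own rows of Rps12, Rpl35a and Rpl38 held 14.4, 44.3 and 43.4% of the sums with copies. Over all 6 libraries those sums gave fold changes of -0.18, -0.36 and -0.40. Rps21, a small subunit gene, kept more of its value, with 51.1, 48.3 and 68.0 FPKM in wild type against 29.04, 47.9 and 39.98 FPKM in the knockout. Its groups did not overlap, and the fold change was -0.52 (SE 0.20; limma, adjusted p = 0.152) and -0.33 without KO 1.

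KO 1 was the lowest library for 48 of the 73 members and WT 3 the highest for 61, where over all genes tested KO 1 was lowest for 18.7% and WT 3 highest for 15.4%. KO 1 lay below the mean of KO 2 and KO 3 for 66 members, and WT 3 above the mean of WT 1 and WT 2 for 68. KO 1 is also the library with the lowest depth, and the part of depth in its position was not tested.

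**Figure D4:**
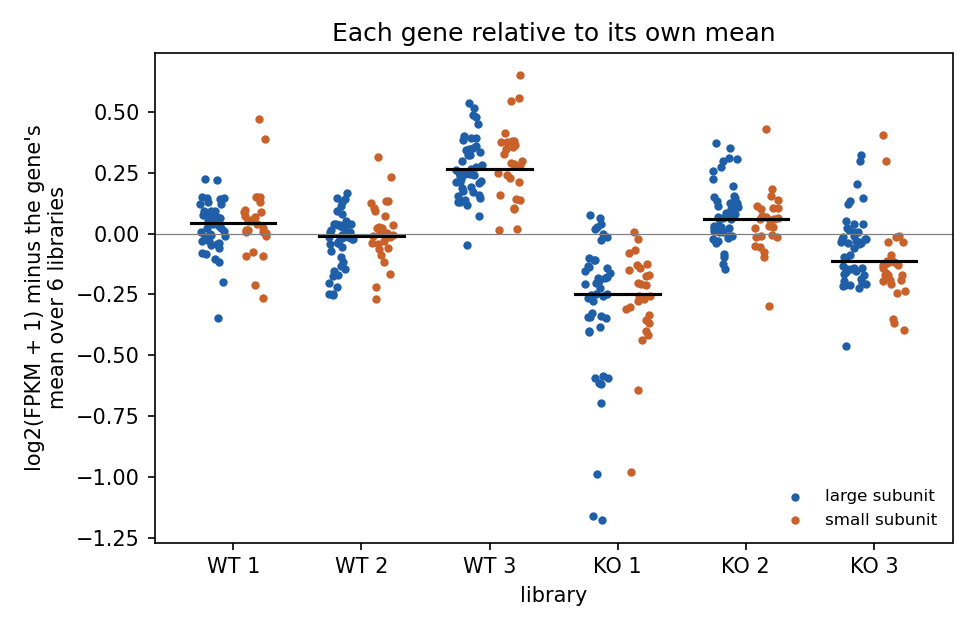
Level of each member in each library on the log2(FPKM + 1) scale, relative to the gene's own mean over the 6 libraries. Dots are genes, coloured by subunit, and black lines are the medians over the 73 genes. The WT 3 dots lie almost all above 0 and the KO 1 dots almost all below, while the other 4 libraries straddle 0.

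The positions of several libraries, KO 1 among them, varied with the length of the gene, in classes of coding length set after the values were seen. The difference between KO 1 and the mean of KO 2 and KO 3 on the log2(FPKM + 1) scale had a median of -0.75 in the 7 members under 300 coding bases. It was -0.29 in the 27 members from 300 to under 450 bases, -0.18 in the 18 members from 450 to under 600 bases and -0.11 in the 21 members of 600 bases or more. In other tested genes of the same classes the medians were -0.23, -0.11, -0.10 and -0.06, so short genes stood lower in KO 1 outside the ribosomal set as well. Rpl41, with 75 coding bases the shortest member, was at 161, 151 and 194 FPKM in wild type and at 102, 181 and 157 FPKM in the knockout. Without KO 1 the members under 300 bases had a median fold change of 0.01, and those of 600 bases or more -0.16. WT 3 also varied with length, in the other direction. Its difference from the mean of WT 1 and WT 2 had medians of 0.42, 0.34, 0.22 and 0.22 in the members of these classes, from short to long, and of 0.20, 0.17, 0.12 and 0.02 in other tested genes. WT 2 stood lower in short genes against the mean of WT 1 and WT 3. Its medians were -0.28, -0.22, -0.14 and -0.11 in the members and -0.19, -0.16, -0.09 and -0.02 in other tested genes. KO 2 stood higher in short genes against the mean of KO 1 and KO 3. Its medians were 0.63, 0.24, 0.22 and 0.18 in the members and 0.19, 0.15, 0.12 and 0.08 in other tested genes.

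**Figure D5:**
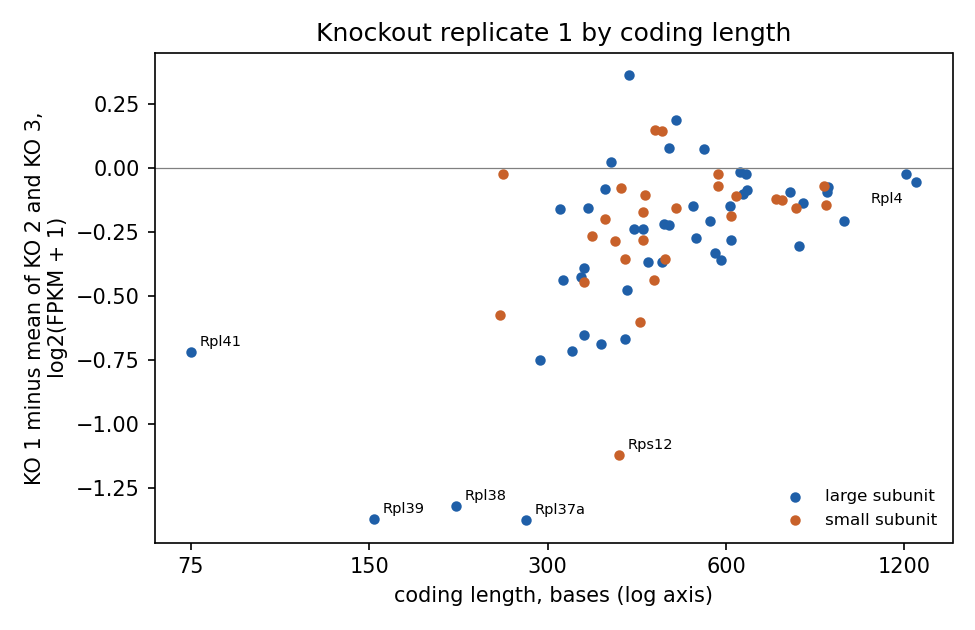
Difference between KO 1 and the mean of KO 2 and KO 3 on the log2(FPKM + 1) scale against coding length in bases (log axis), 1 dot per member, coloured by subunit. Rpl37a, Rpl39 and Rpl38 lie lowest among the short genes, and the 21 members of 600 bases or more have a median of -0.11.

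The P-stalk of the large subunit, which recruits elongation factors, is formed by the products of Rplp0, Rplp1 and Rplp2. Rplp0 was at 272, 283 and 316 FPKM in WT 1 to 3 and at 225, 279 and 242 FPKM in KO 1 to 3. Rplp1 was at 336, 332 and 443 FPKM and at 254, 344 and 341 FPKM in the same order. Rplp2 was at 93.3, 91.0 and 117 FPKM and at 69.7, 93.4 and 89.98 FPKM. In all 3 genes WT 3 was the highest and KO 1 the lowest library and the groups overlapped, and the fold changes were -0.23, -0.24 and -0.25 with adjusted p of 0.254, 0.391 and 0.320 (limma).

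Rps27a encodes a small subunit protein fused to ubiquitin, and by its own row it did not follow the pattern of libraries seen in most members. It was at 12.5, 10.3 and 9.44 FPKM in WT 1 to 3 and at 8.76, 8.65 and 7.10 FPKM in KO 1 to 3. The groups did not overlap and WT 3 was the lowest wild-type library, and the fold change was -0.35 (SE 0.13; limma, adjusted p = 0.133) and -0.40 without KO 1. Fau, a fusion to a ubiquitin-like protein, had a fold change of 0.05. Rpl28, of the large subunit, was at 3.47, 3.53 and 3.93 FPKM in wild type and at 3.30, 2.77 and 1.98 FPKM in the knockout, also without overlap, with a fold change of -0.35 (SE 0.14; limma, adjusted p = 0.182) and -0.47 without KO 1. Neither gene had a window of its own.

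On the other side, 8 members had fold changes above zero, and none had groups that stood apart. Rpl27, a large subunit gene, was at 2.33, 2.64 and 3.69 FPKM in WT 1 to 3 and at 2.74, 4.12 and 4.30 FPKM in KO 1 to 3 (0.28, SE 0.18; limma, adjusted p = 0.366). Rpl22, a large subunit gene that mice can live without, was at 25.6, 24.7 and 29.05 FPKM and at 29.2, 30.2 and 27.3 FPKM (0.13, SE 0.09; limma, adjusted p = 0.427). Its paralog Rpl22l1, whose protein can take the same place in the ribosome, was at 17.2, 15.96 and 17.7 FPKM in wild type and at 7.98, 13.1 and 14.4 FPKM in the knockout. There the groups did not overlap, with a fold change of -0.52 (SE 0.19; limma, adjusted p = 0.141). Rpl10a, Rpl31, Rps23 and Rps27 had 0.11, 0.10, 0.07 and 0.05, at mean levels of 1.68, 5.11, 3.36 and 1.40 FPKM, and Rps23 and Rps27 turned below zero with median-of-ratios scaling and with quantile normalization. Rps15 and Rps19, of the small subunit, and Rpl10 and Rpl36a, X-linked genes of the large subunit, lay near zero at -0.03, -0.04, -0.08 and -0.09, and with TPM scaling Rps15 and Rps19 turned above it.

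Rps3, which encodes a protein at the mRNA entry channel, is the member that lies nearest to the targeted gene, at chr7:99477896-99483738 on the minus strand (GRCm38), and was named for that position. It was at 125, 123 and 144 FPKM in WT 1 to 3 and at 112, 129 and 115 FPKM in KO 1 to 3. The groups overlapped, at a fold change of -0.14 (SE 0.10; limma, adjusted p = 0.436).

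The members were also compared with the rows of their copies added. Of the 73 sums, 69 were lower in the knockout, with a median log2 difference of -0.23, and the medians of the subunits were -0.23 (large) and -0.24 (small). For Rps23 the sum with its copies was 42.4 ± 5.26 FPKM in wild type and 35.2 ± 6.92 FPKM in the knockout (SD, n = 3), a log2 difference of -0.27 where the gene's own row gave 0.07. For Rpl10a the sum gave -0.28 where its own row gave 0.11. So both genes were above zero by their own row and below zero with copies. Rpl21, of the large subunit, went the other way, from -0.13 by its own row to 0.13 with copies. Rps27 rose from 0.05 to 0.12, and 4 of the 73 sums were higher in the knockout. The 49 rows named as processed copies and at or above the filter had a median fold change of -0.24, with 45 below zero and 0 called.

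The members also moved together across the 6 libraries. The correlation of a member's log2 level with the mean of the other members was above 0.9 for 35 of the 73, above 0.5 for 60 and below 0 for 1, Rps18 of the small subunit, with a median of 0.90 over 6 libraries that share their group differences. Rps14 and Rps20 were closest to the rest, at 0.99 each, and Rpl22 and Rps27a were far from it, at 0.05 and 0.26. Outside the set, the genes whose levels were most correlated with the mean of the members, among 6318 candidates, were Wdr61, Rpsa-ps2, Rwdd1, Rbbp4 and Apoc1, at 0.997, 0.996, 0.994, 0.990 and 0.989. Rpsa-ps2 is itself a copy of a member.

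The promoters of the members were also searched, in the RefSeq windows of GRCm38.p6, which run from 250 bases before to 50 after each annotated start. Any link between promoter sequence and the levels was not tested. Of the 73 genes, 54 had a window. The pyrimidine run CTCTTTC, picked after the members' windows had been read, was on the gene's strand in 13 of the 54 (24.1%), against 4.64% of 7842 other tested genes and 4.60% of all 27025 genes. On either strand it was in 31.5% of members and 8.65% of other tested genes. Another pair of strings was searched, also chosen after values or sequences had been seen. Strings picked in this way can be commoner in members by the choice itself, so their shares are a description and not a test. CTTTCC, which can overlap the first, was on the gene's strand in 42.6% of members and 17.7% of other tested genes. CCGGAAG, a core bound by ETS factors such as GABP, was on the gene's strand in 25.9% and 11.8%. On either strand these shares were 53.7% and 30.8% for CTTTCC and 42.6% and 20.6% for CCGGAAG. A gene with several annotated starts counted if any window matched. The following stretches show the match in capitals at or within 5 bases after the annotated start.
Rpl35: cccgccctttcCTCTTTCtctcgaaccagg
Rpl28: ctctcgtgtctCTCTTTCcgtctccggccg
Rpl18: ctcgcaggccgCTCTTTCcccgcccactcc
Rps26: gccgccggatcCTCTTTCgagtcttggctc

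These stretches lie at chr2:39005113-39005142 (minus strand), chr7:4792954-4792983 (plus), chr7:45718061-45718090 (plus) and chr10:128626483-128626512 (minus). The genes that carry them differed in level and in fold change. Rpl35 was at 82.3 FPKM with a fold change of -0.32, Rpl28 at 3.16 FPKM with -0.35, Rpl18 at 102 FPKM with -0.13 and Rps26 at 129 FPKM with -0.28. A match is a description of these letters and not a site.

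Other genes of the ribosome's life cycle were taken from lists. Of 23 tested genes whose mRNAs are translated with the TOP class or that act beside it, such as elongation and nucleosome assembly factors, 0 were called, with a median fold change of -0.02 and 12 below zero. Eef1b2, an elongation factor subunit, was at 61.7, 60.3 and 72.4 FPKM in wild type against 49.5, 60.5 and 57.2 FPKM in the knockout (-0.21, SE 0.11). Of 9 noncoding snoRNA host genes, 0 were called, with a median of -0.00 and values from -0.46 (Snhg8) to 0.34 (Epb41l4aos). The set of ribosomal protein genes thus had a lower median than either list, and the difference between them was not tested.

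Of 32 translation initiation factors 0 were called, with a median of 0.06, and of 89 ribosome biogenesis factors 0 were called, with a median of 0.04. Nol6, a nucleolar factor of small subunit assembly, was at 8.28, 8.11 and 6.68 FPKM in wild type and at 10.4, 10.7 and 10.3 FPKM in the knockout, at a fold change of 0.41 (SE 0.10; limma, adjusted p = 0.0508). Of 26 regulators of ribosomal protein synthesis 1 was called, Mtor, the kinase of that name, which was at 4.84, 3.98 and 3.65 FPKM in wild type and at 5.71, 6.12 and 6.37 FPKM in the knockout. It was higher in each knockout library than in each wild-type library (0.46, SE 0.11; limma, adjusted p = 0.0489). Over all genes tested 6.9% were called. Groups that stood apart with the knockout higher were found for 6 of the 26 regulators and for 23.4% of all genes. The 1 call is thus no result about the list. Of 75 mitochondrial ribosomal protein genes, which encode the separate ribosome of that organelle, 0 were called, and 34 were below zero with a median of 0.01.

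Markers of other cells of the liver were read in the same libraries. Endothelial markers summed to 86.8 to 99.8 FPKM in wild type and 99.8 to 112 FPKM in the knockout, with 2 of 7 called higher, Lyve1 and Pecam1. Of the 7, 5 had fold changes above zero and 2 below, with a median of 0.29. Kupffer cell markers summed to 298 to 325 FPKM and 311 to 385 FPKM, with 1 of 9 called lower, Vsig4. Most of the 9 went the other way, with 6 above zero, 3 below and a median of 0.10. Stellate markers summed to 99.3 to 126 FPKM and 106 to 145 FPKM with 0 of 7 called, and cholangiocyte markers to 29.98 to 60.6 FPKM and 36.9 to 97.9 FPKM with 0 of 4 called. Of the 6 listed B cell markers only Cd74 passed the filter, and Ighm was at 0. The 6 summed to 31.4 to 55.5 FPKM and 62.6 to 181 FPKM, with 0 of 1 called. Nearly all of that sum was Cd74, so it describes that gene and gives no reading of B cells. T cell markers summed to at most 1.62 FPKM in any library, with Cd2 and Trac at 0, and neutrophil markers to at most 6.35 FPKM with 0 of 2 called. Red blood cell markers summed to 79.4 to 127 FPKM and 68.8 to 171 FPKM, with 2 of 6 called higher, Hbb-b1 and Hbb-b2. The other 4 were below zero and not called, among them the beta globin genes Hbb-bs at -1.77 and Hbb-bt at -1.25, and the median of the 6 was -0.41. Hbb-b2 was at 0 FPKM in WT 1 to 3 and at 2.28, 9.37 and 1.69 FPKM in KO 1 to 3. Hbb-bs was at 11.6, 33.4 and 16.2 FPKM and at 1.69, 20.6 and 2.25 FPKM in the same order. The beta globin genes thus went in opposite directions, and the list gives no single direction for red blood cells. The part of these cells in the levels of the ribosomal protein genes was not tested.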

How the data were processed

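RNA-seq of 3 HFD-WT and 3 HFD-ARRB1-KO libraries was used as the authors deposited it, as FPKM per gene symbol and library. Trizol was used for extraction and a TruSeq kit, with 1 ug of total RNA, for library construction, per the labels' protocols. Bowtie 0.12.2, HISAT2, mm8 and mm10 are named, per the submitters' processing notes. Their roles, the gene annotation, strandedness and the treatment of reads with several matches are not given in the sources used here.

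From these values, limma 3.58.1 in R 4.3.3 (eBayes with trend, two-sided) was fitted with genotype as single factor to log2(FPKM + 1) of all genes that averaged 1 FPKM or more, with Benjamini-Hochberg adjustment over all of them and calls at an adjusted p under 0.05. The fit was also run on simulated data, with larger changes than those of the members and no shifts of single libraries beyond depth. That run therefore does not bear on changes of the size reported here. Fold changes are knockout minus wild type, and a pseudocount of 1 understates those of low genes. An exact permutation test of 3 libraries against 3 has 0.1 as its smallest p.

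Reads and depth were recovered from the steps between FPKM values. All 76 matched genes gave whole reads, within 0.05 reads, with at least 11 reads for any gene that passed the filter. A factor common to all 6 libraries would be missed. The totals in fragments are estimates. Sequences, windows and positions come from GENCODE vM21 (GRCm38), and promoters from RefSeq. Python 3.11.15, pandas 2.3.3, scipy 1.17.1 and matplotlib 3.10.9 were used.

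The genes and lists were chosen with earlier results of these data known. Genes were named by rule: in each subunit the 5 highest and the lowest in level, the 4 largest and the 4 smallest fold changes and the 3 with the largest spread relative to the other members, the P-stalk genes, Rpsa, the ubiquitin fusions, X-linked members, genes at the edge of the filter, members called, Arrb1 and up to 4 genes of smallest p from each other list. Genes that are named for another reason (Rpl3, Rps3, Rpl41, Rpl15, Rpl19, Rpl21, the promoter examples and genes listed for their length) were chosen after their values or sequences were seen. Some genes that the rule names are not reported here. The settings varied were the pseudocount (0.1), the filter (none, or 5 FPKM), the scaling (TPM, median-of-ratios, quantile), eBayes without trend or robust, array weights, a replicate block, each library left out and, added after seeing the data, voom on recovered reads.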

Additional observations from a re-analysis of the deposited data

How the results depend on the processing

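The count of members called higher was 0 with each of the 17 alternatives, and at most 2 members were higher at an unadjusted p under 0.05 in any of them (without WT 3). The count called lower was 0 except for 3 with median-of-ratios scaling and 1 with quantile normalization; at an unadjusted p under 0.05, 40 and 24 members were lower with these scalings and 4 to 22 with the others, against 13 as reported. The medians of both subunits stayed below zero in all settings and moved by less than the wide spread between libraries, though leaving out KO 1 or WT 3 took them closer to zero (large subunit -0.09 and -0.11, small subunit -0.17 and -0.16). The call of Arrb1 was lost with robust eBayes (-2.64, limma adjusted p = 0.0769) and in 5 of 6 fits with a library left out (-2.68 to -2.19), and was kept without WT 1 (-3.33).

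Replicate numbers did not establish pairs: deviations of libraries with the same number correlated at 0.17, -0.06 and 0.10. With the number as a block, 0 members were called, 10 had an unadjusted p under 0.05, and calls over all genes went from 734 to 402. Voom on recovered reads, chosen after seeing the data, called 0 members, with 12 at an unadjusted p under 0.05.

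Of 505 values of the 30 members named by rule, 18 in 7 genes changed sign; the cause was not tested. TPM scaling gave Rps15 0.026 and Rps19 0.014, and array weights gave Rps15 0.018. Median-of-ratios scaling gave Rps23 -0.0071 and Rps27 -0.014, and quantile normalization gave -0.019 and -0.064. With each library left out, Rpl10 ranged from -0.137 to 0.0101, Rpl36a from -0.294 to 0.0539, Rpl38 from -0.450 to 0.229, Rps15 from -0.118 to 0.107, Rps19 from -0.16 to 0.0644, Rps23 from -0.117 to 0.269 and Rps27 from -0.158 to 0.240. Of these, Rpl10 turned above zero without WT 3, Rpl38 without KO 1, and Rpl36a, Rps15 and Rps19 without WT 3 and without KO 1 in turn. Rps23 turned below zero without KO 3, and Rps27 without WT 1 and without KO 2. Depth limits the lowest genes: Rps27 had at least 11 reads in its lowest library.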
